A study of Arabidopsis thaliana with 6 samples.

Results

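Hsp70-2 (AT5G02490), AT2G18690 and AT2G32210 are 3 Arabidopsis thaliana genes whose transcripts measured higher in roots and lower in rosette leaves of plants given lead. They were picked because a probe set of each was at least 2-fold above the control array in roots and at least 2-fold below it in leaves at both lead doses, so the lead values that follow describe that choice, and no test of them is given gene by gene. Every probe set naming 1 of these genes was taken, which gave 4 of the 8247 probe sets on the array: 16465_at and 16916_s_at for Hsp70-2, 17894_at for AT2G18690 and 18267_at for AT2G32210. They stand for 3 of the 3592 genes with a probe set that named 1 gene. All 4 passed the filter on low signals, among 5395 that did.

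The series was set up to find genes involved when plants take up, tolerate or defend themselves against lead. Plants of accession Col-4 were grown in hydroponic culture and either got no lead or were given Pb(NO3)2 at 25 or 50 ppm lead, added 2 times with the nutrients, and roots and rosette leaves were taken at growth stage 6. Each of the 6 combinations of organ and dose was measured on 1 Affymetrix array. No value therefore has a replicate or an SD, and the number of plants behind each RNA sample is not given in the labels.

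Heat shock proteins of the HSP70 family are chaperones that bind unfolded stretches of other proteins, with ATP driving the cycle of binding and release. Hsp70-2 belongs to the cytosolic branch of the family, whose members include both constitutive and heat-induced genes and are very alike in sequence. AT2G32210 encodes a small protein of the cysteine-rich transmembrane module family, which is found across eukaryotes and has been tied to stress tolerance. AT2G18690 encodes a predicted membrane protein.

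Several measures of the arrays bear on all values. Background averaged 192.65 for roots at 50 ppm and lay between 69.03 and 97.8 for the other arrays, and between 26% and 33.6% of the signals on an array were under the floor of 8.00, the level below which signals were treated as equal. The ratio of 3' to 5' signal of the control transcript GAPDH, a measure of RNA integrity, was 1.28, 0.826 and 1.16 in roots at 0, 25 and 50 ppm, and 1.97, 2.03 and 1.40 in leaves. For ubiquitin it was 2.23, 2.06 and 2.00 in roots and 2.41, 2.83 and 2.74 in leaves. The labelled organs matched their markers. The root markers were already known from an earlier result of these arrays, so their match is no check of the labels. The 6 probe sets of the leaf markers RCA, PSBW and PSAE-1 (3 of 6 listed genes were named on the array) summed to between 19436 and 28005 on leaf arrays and between 50.3 and 98.7 on root arrays, where 3 or 4 of them lay under the floor. The 4 probe sets of the root markers BGLU21, AT3G32980, AT5G64100 and AT4G30170 (4 of 5 listed genes) summed to between 8008 and 9682 on root arrays and between 10.6 and 18.0 on leaf arrays, where at least 3 lay under the floor. On root arrays PSBW measured at most 5.20 and on leaf arrays BGLU21 at most 1.71. Other markers lay above the floor in the other organ: at 0, 25 and 50 ppm PSAE-1 on 18090_s_at measured 38.6, 20.9 and 55.8 in roots and RCA 14.5, 8.81 and 27.6, both highest at 50 ppm, and AT5G64100 measured 8.43 in leaves at 25 ppm. The part of these signals in the values of the members was not tested. Fewer cells of a type and less RNA per cell cannot be told apart in such whole-organ samples.

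The chaperone gene Hsp70-2 had the widest gap between the organs. On probe set 16465_at its root signal was 41.7 without lead, 88.4 with 25 ppm and 115.6 with 50 ppm. In leaves the same probe set measured 321 without lead, 8.43 at 25 ppm and 24.1 at 50 ppm. Both lead-treated root arrays were thus above their control and both lead-treated leaf arrays far below theirs, with the 25 ppm leaf array just above the floor. Against control, roots were 2.12-fold and 2.77-fold higher at the low and the high dose, while leaves were 38.1-fold and 13.3-fold lower. The leaf part of the pattern was much larger than the root part. Averaged over the doses, the log2 change was 1.28 in roots and -4.49 in leaves. Ordered by how far the root change lay above the leaf change, this probe set ranked 1 of the 5395, with a difference of 5.77.

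The second probe set of Hsp70-2, 16916_s_at, had the same direction on every array at weaker signals. Its root signal was 8.00 without lead, at the floor, then 13.9 with 25 ppm and 42.7 with 50 ppm. In leaves it measured 64.1 without lead, 1.71 at 25 ppm and 0.997 at 50 ppm. Both lead-treated leaf arrays lay under the floor, so the leaf signal was at least 8.01-fold lower at each dose and the order of the doses there is not known. In roots the change was 1.74-fold at 25 ppm, which is why this probe set missed the 2-fold rule, and 5.33-fold at 50 ppm. The pair thus differed in the step between the doses in roots: the 50 ppm root signal was 1.31 times the 25 ppm signal on 16465_at and 3.07 times on 16916_s_at. The letter s in a probe set name marks probes that can match more than 1 transcript. Signal from the closely related cytosolic HSP70 genes cannot be told apart from that of Hsp70-2 there.

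AT2G18690 had strong signals on all 6 arrays, so its values do not depend on the floor. Its root signal was 141 without lead, 459 with 25 ppm and 701 with 50 ppm. In leaves it measured 672, 336 and 132 in the same order. The signals of the organs ran in opposite dose order, upward in roots and downward in leaves, and the lines crossed between 0 and 25 ppm. The root signal was 3.26-fold and 4.98-fold higher than in control roots. The leaf signal was 2.00-fold and 5.11-fold lower than in control leaves. At 50 ppm the root signal was 1.04 times that of control leaves, and the leaf signal 0.936 times that of control roots. This gene therefore met the rule at its edge in leaves at 25 ppm, where the log2 change was -1.003. With the arrays scaled to the median of bright probe sets (mean signal 100 or more) that change was -0.97, and with quantile normalization -0.98, so that the gene no longer met the 2-fold rule.

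AT2G32210, the cysteine-rich transmembrane module gene, had a root signal of 18.1 without lead, 42.9 with 25 ppm and 207 with 50 ppm. In leaves it measured 73.8 without lead, 14.3 at 25 ppm and 17.9 at 50 ppm. The 50 ppm root array was the highest of the 6, at 2.81 times control leaves, while the leaf arrays with lead lay at 0.792 and 0.991 times control roots. Roots with 25 ppm were 2.37-fold and roots with 50 ppm 11.4-fold above their control. The leaf signal was 5.15-fold and 4.11-fold lower. The root difference from control was therefore uneven between the doses, with a 4.83-fold step from 25 to 50 ppm, while the leaf doses lay within 1.25-fold of each other. The 50 ppm root array had the high background named above, and its part in that step was not tested. With the 25 ppm root array alone the gap between root and leaf change was 3.45 (log2), against 4.58 with both.

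**Figure D1:**
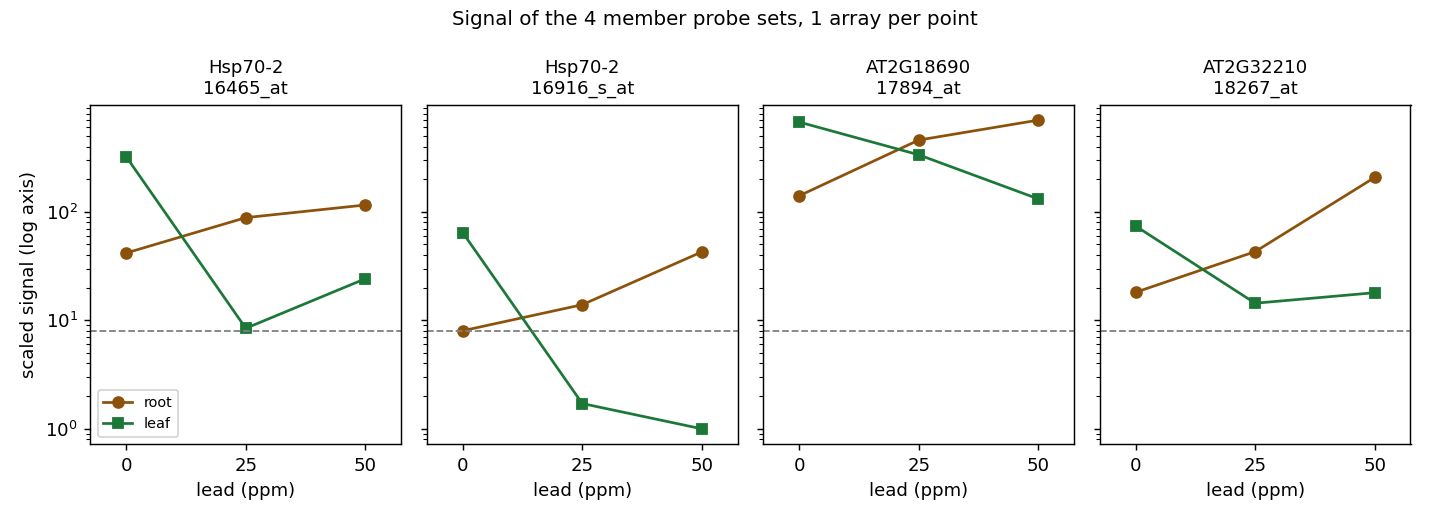
Scaled signal (log axis) of each member probe set against lead in the nutrient solution (ppm), with roots as brown circles and leaves as green squares, 1 array per point, and the floor of 8.00 as a dashed line. In every panel the leaf point is the higher at 0 ppm and the root point the higher at 25 and 50 ppm, and the leaf points of 16916_s_at with lead lie under the floor.

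Across the members, the control organs stood the other way round from the organs with lead. Without lead the leaf signal was above the root signal on all 4 probe sets, by 7.70-fold and 8.01-fold for Hsp70-2, 4.78-fold for AT2G18690 and 4.08-fold for AT2G32210. With lead the root signal was the higher on all 4. At 25 ppm roots exceeded leaves by 10.5-fold and at least 1.74-fold for Hsp70-2, by 1.37-fold for AT2G18690 and by 2.99-fold for AT2G32210. At 50 ppm the same ratios were 4.79-fold, at least 5.33-fold, 5.32-fold and 11.6-fold. A turn of at least 2-fold each way, at both doses, was met by 2 of the 4, namely 16465_at of Hsp70-2 and AT2G32210, and by 8 of the 5395 tested probe sets (0.148%). The choice of members used these same values, so nothing is read from that count.

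The level of the genes in the organs, averaged over the doses, was not itself the quantity the members were chosen on, but it comes from the same values. It was tested with limma, a linear model fitted across all probe sets (root against leaf, dose as a further term, 3 arrays against 3, two-sided, Benjamini-Hochberg). None of the 4 probe sets passed at 0.05. Hsp70-2 had a root-minus-leaf log2 level of 0.90 on 16465_at (95% interval -2.03 to 3.83, adjusted p = 0.545) and of 0.07 on 16916_s_at (-2.41 to 2.55, adjusted p = 0.959). AT2G18690 had 0.20 (-1.85 to 2.26, adjusted p = 0.853) and AT2G32210 had 1.03 (-1.44 to 3.49, adjusted p = 0.413). In the same test 31% of all 5395 were called higher in roots and 21.6% in leaves. The opposite lead changes that the members were chosen for count as error in this fit, which makes their intervals wide. The choice thus worked against passing, and nothing is read from the lack of a call. The width of these intervals follows in part from the choice, so nothing is read from it.

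The count behind the choice was small. Higher in roots and lower in leaves at both doses by at least 2-fold were 6 of 5395 probe sets (0.111%), against 3 (0.0556%) with the converse pattern, lower in roots and higher in leaves. Each part was less rare: 156 probe sets (2.89%) were higher in roots, with 3 of the 4 member probe sets among them, and 56 (1.04%) were lower in leaves, with all 4 members among them. Without regard to size, 333 probe sets (6.17%) were above control in both root arrays and below it in both leaf arrays. The count of 6 became 20 without the 25 ppm root array and 11 without either leaf array with lead, since the rule then rests on a single dose in that organ. In the same way the 156 became 591 without the 25 ppm root array and 253 without the 50 ppm one, and the 56 became 203 and 166 without the 25 and 50 ppm leaf arrays. With an offset of 16 in place of the floor no probe set met the opposite rule. The log2 change at 25 ppm that then fell short of 2-fold was 0.79 in roots for AT2G32210, 0.85 in roots for Hsp70-2 on 16465_at and -0.97 in leaves for AT2G18690. Raising the floor to the 50th percentile likewise took AT2G32210 out of the rule, with a log2 change of 0.76 in roots at 25 ppm.

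Of the 6 probe sets, 3 are unnamed here, and they set out how the members lie within the rule. The smallest of the 4 log2 changes was 1.48 for the unnamed 16638_at, 1.25 for AT2G32210, 1.08 for Hsp70-2, 1.08 for the unnamed 13015_s_at, 1.08 for the unnamed 13284_at and 1.00 for AT2G18690. Just outside lay the unnamed 13285_at with 0.96, the unnamed 19991_at with 0.93, AT4G13180 with 0.91 and ATPMEPCRB with 0.84. AT4G13180, of the short-chain dehydrogenase/reductase family, measured 40.1, 125 and 160.1 in roots and 29.6, 15.8 and 15.0 in leaves at 0, 25 and 50 ppm. ATPMEPCRB, a pectin methylesterase that acts on cell wall pectin, measured 8.81, 15.8 and 37.8 in roots and 157, 48.5 and 18.9 in leaves. Members and near misses thus formed no separate group by this measure. The converse pattern was held by 3 unnamed probe sets, of which 17963_at measured 33.5, 9.91 and 9.19 in roots and 18.4, 64.0 and 469 in leaves.

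**Figure D2:**
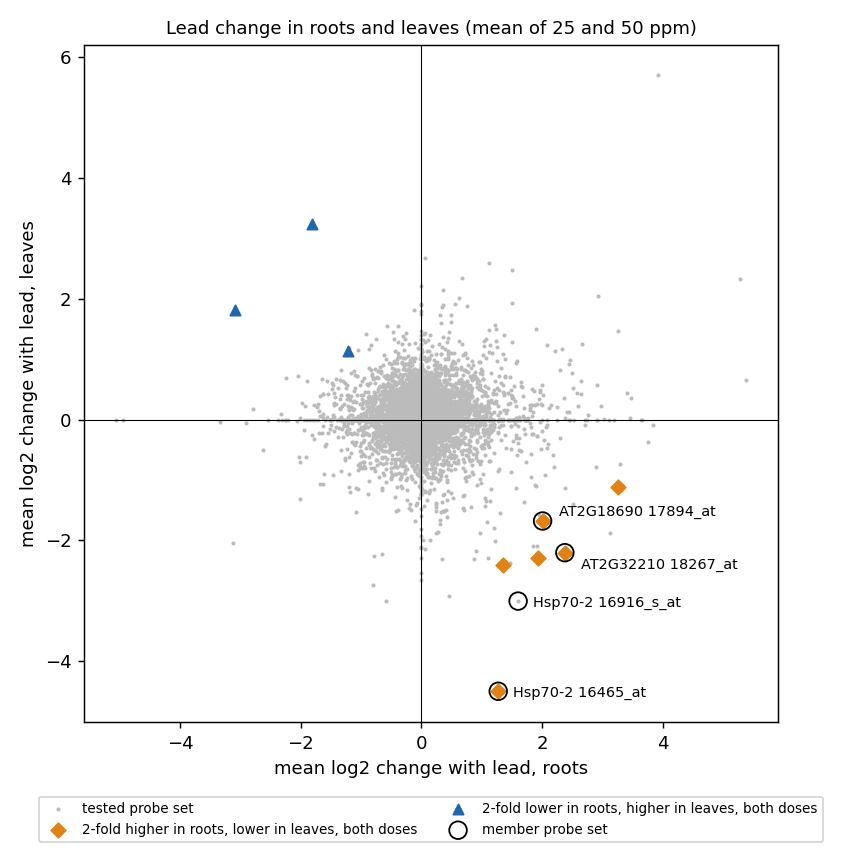
Mean log2 change with lead (25 and 50 ppm averaged) in leaves against that in roots for the 5395 tested probe sets (grey), with the 6 that were 2-fold higher in roots and lower in leaves as orange diamonds, the 3 converse ones as blue triangles, and the 4 member probe sets ringed. Hsp70-2 on 16465_at, at 1.28 in roots and -4.49 in leaves, is the lowest point of the plot.

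The members differed among themselves in which organ carried the larger change. Hsp70-2 had the larger log2 change in leaves on both probe sets, with means of -4.49 against 1.28 and of -3.002, a lower bound in size, against 1.61. AT2G18690 and AT2G32210 were more even, at -1.68 against 2.01 and -2.20 against 2.38. In roots the signals of all 4 probe sets stood in the ascending order of control, 25 and 50 ppm, an order held by 18% of the tested probe sets. The rule the members were chosen by already put the control lowest in roots, except on 16916_s_at, which missed it. That share covers all tested probe sets, so nothing is read from the comparison. In leaves the order differed by gene: AT2G18690 was lowest at 50 ppm, Hsp70-2 on 16465_at and AT2G32210 were lowest at 25 ppm, and 16916_s_at had no order. Over the 6 arrays the log2 signals of 16465_at and 16916_s_at correlated at 0.87. The correlations between different genes ran from 0.62, for 16465_at with AT2G18690, to 0.88, for 16916_s_at with AT2G32210. The genes were chosen for a shared pattern, so these correlations describe the choice.

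Related genes were described next, from lists of chaperone and stress genes. Of the 5 cytosolic HSP70 genes, AT3G09440 was the only one besides Hsp70-2 with a named probe set. On 15960_at it measured 750.0, 1661 and 1585 in roots and 1075, 652 and 1048 in leaves in dose order. On 16466_s_at it measured 411, 425 and 720 in roots and 437, 161 and 296 in leaves. Both of its probe sets lay above control in both lead-treated root arrays and below it in both leaf arrays, as did 6.17% of all tested ones. Some of these changes of AT3G09440 were very small. The log2 change in leaves at 50 ppm was -0.04 on the first and -0.56 on the second, far from the -3.73 of Hsp70-2 on 16465_at. In roots at 25 ppm it was 0.05 on the second. That probe set also carries the letter s, so signal from other cytosolic HSP70 genes cannot be told apart there. The HSP70-like HSP110 genes, which help HSP70 release its nucleotide, had smaller changes than Hsp70-2 on 16465_at. AT4G16660 had log2 changes of 0.51 and 0.82 in roots and -0.65 and 0.17 in leaves on 14487_at. Its other probe set, 18140_at, did not pass the signal filter. It had -0.06 and 0.70 in roots and -0.28 (under the floor at 25 ppm) and 0.40 in leaves. AT1G11660 had -0.13 and -0.40 in roots and -0.04 and 0.10 in leaves.

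The wider heat shock machinery was thinly covered by named probe sets. Of the 8247 probe sets 4393 are unnamed here, and whether genes of this machinery are among them is not known. None of the 7 organelle HSP70 and BiP genes, the 7 HSP90 genes and the 12 heat shock factors had a named probe set. Of 12 HSP100 and small heat shock protein genes 3 were named and 0 passed the signal filter. AT1G53540 lay under the floor in control roots, at 9.71 and 17.1 in roots with 25 and 50 ppm, and under the floor in leaves. AT2G29500, another small heat shock protein gene, measured 12.4, 15.0 and 20.1 in roots and 20.7, 12.4 and under the floor in leaves, above control in both lead-treated root arrays and below it in both leaf arrays like the members. ATHSP22.0 lay under the floor on 5 arrays and measured 12.4 in leaves at 25 ppm, above its control there. The co-chaperone Hop3, which links HSP70 with HSP90, lay under the floor on all 6 arrays. A joint change of heat shock genes could therefore not be described.

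Among the cysteine-rich transmembrane module genes, 4 of 13 were named and 3 were tested, of which AT2G32210 is one. AT2G32200, the gene next to AT2G32210 on chromosome 2, measured 40.4, 53.8 and 79.7 in roots and 75.5, 47.3 and 20.7 in leaves. AT1G05340 measured 195, 635 and 262 in roots and 38.8, 23.1 and 10.7 in leaves. Both were above control in both lead-treated root arrays and below it in both leaf arrays, as were 6.17% of all tested probe sets. Their changes in leaves were smaller than those of AT2G32210, and neither gene met the 2-fold rule at both doses in either organ. The lists were chosen with earlier results known, so nothing is read from this about the family. The gene on the other side of AT2G32210, AT2G32220, had log2 changes of 0.35 and -0.39 in roots and 0.41 and 1.11 in leaves. AT2G18670, the 1 tested gene among the 10 nearest to AT2G18690, had -0.44 and 0.23 in roots and 0.23 and 0.52 in leaves. None of the 10 nearest to Hsp70-2 had a named probe set, among them its direct neighbour HSC70-1 (AT5G02500), another cytosolic HSP70 gene.

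Genes of the early response to microbial patterns were set beside the members, since this response includes many stress regulators. Of 23 genes 4 were named, all tested on 5 probe sets. WRKY53, a transcription factor of leaf senescence and immunity, measured 21.4, 26.6 and 25.6 in roots and 175, 58.6 and 39.4 in leaves, so that its leaf values were lower at both doses while its root values lay within 1.24-fold of control. STZ (ZAT10), a zinc-finger repressor of stress genes, had log2 changes of -2.43 and 1.74 in roots and -1.03 and -0.95 in leaves on 18216_at, and -0.26 and 1.49 in roots and -0.60 and -0.84 in leaves on 18217_g_at. WRKY22 had -0.07 and 0.14 in roots and -0.07 and -0.98 in leaves. WRKY29 had -0.71 and 1.06 in roots and lay under the floor in leaves. At 25 ppm the root values of STZ on both probe sets, of WRKY22 and of WRKY29 were below control, unlike those of the members.

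The limma fit counted 25 and 50 ppm together as lead. Of the 5395 probe sets 0 passed for lead in roots, for lead in leaves or for the difference between organs (0% in each direction). At an unadjusted p under 0.05 there were 332, 134 and 202 in that order. The members are within the 5395 but were chosen on these same changes, so nothing is read from these tests about them. A fit that leaves out either root array with lead takes the error of roots from the leaf arrays, so nothing is read from its calls. With all arrays, of the 11 tested probe sets of these 4 lists that are not members, 0 passed in any of the 3. The 2 probe sets of AT3G09440 had a median log2 change of 0.77 in roots and -0.69 in leaves, and the 2 of HSP110 genes 0.20 and -0.11. The 2 other transmembrane module probe sets had 0.88 and -1.29, and the 5 of the microbial pattern list 0.17 and -0.72. Over all tested probe sets the medians were 0 in roots and 0.04 in leaves. With so few genes these medians are descriptions of single transcripts rather than of pathways.

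**Figure D3:**
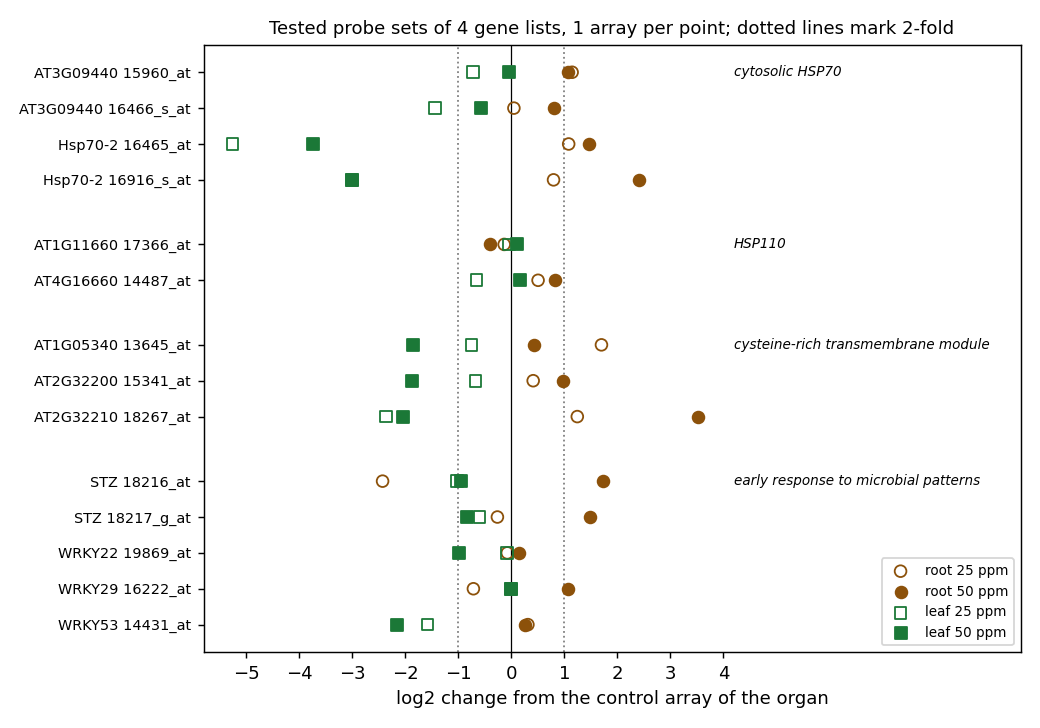
Log2 change from the control array of the same organ for the tested probe sets of 4 gene lists, with roots as brown circles and leaves as green squares, 25 ppm open and 50 ppm filled, 1 array per point. The probe sets of Hsp70-2, AT3G09440, the 3 transmembrane module genes and WRKY53 have root points right of 0 and leaf points left of 0. Some points of AT3G09440 lie close to 0. Those of STZ have root points on both sides.

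The genes whose 6 log2 signals were most like those of a member were found among the 2305 tested probe sets naming 1 gene. For AT2G32210 they were AT2G41410, an EF-hand calcium-binding protein, with Pearson correlations of 0.99 and 0.97 on its pair of probe sets, then AT4G02220 (0.96), the beta-glucosidase gene BGLU25 (0.95) and AT2G01610 (0.92). AT2G41410 measured 336, 488 and 896 in roots and 511, 284 and 335 in leaves on 16952_s_at, above control in roots and below it in leaves at both doses, but within 2.67-fold of it. For AT2G18690 they were AT4G17650 (0.94), AT2G39870 (0.93), AT2G32200 (0.91), AT4G27280, another EF-hand protein gene (0.87), and GR1, a glutathione reductase (0.87).

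For Hsp70-2 the likeness differed by probe set. On 16465_at the closest were AT5G24430 (0.91), AT4G29520 (0.87), the other Hsp70-2 probe set (0.87), AT4G23470 (0.87) and AT2G46320 (0.84). On 16916_s_at they were SRC2, a C2-domain protein gene (0.97), AT4G27280 (0.95), AT1G03370 (0.93), AT2G39870 (0.92) and AT2G42360 (0.88). AT4G27280, which was near both AT2G18690 and 16916_s_at, measured 140, 182 and 350.0 in roots and 320, 181 and 163 in leaves. The sizes differed from those of the member: AT5G24430 stayed between 27.2 and 48.3 on all 6 arrays, against 8.43 to 321 for Hsp70-2. The correlations are over 6 arrays that also share organ and dose, and carry no test.

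The size of the organ difference held its direction under all 10 other ways of processing that were tried on each member probe set. AT2G18690 ran from 3.01, without the 50 ppm leaf array, to 4.37, without the 25 ppm leaf array. AT2G32210 ran from 3.23 to 5.72, Hsp70-2 on 16465_at from 4.45 to 6.53 and on 16916_s_at from 1.72 to 7.09. The widest range belonged to 16916_s_at, whose leaf signals under lead lay under the floor and whose difference therefore moved with it. With the floor at the 50th percentile its root changes (log2) shrank as well, from 0.80 to 0 at 25 ppm and from 2.41 to 0.75 at 50 ppm. All of these organ differences share the same single control array per organ, so their common direction is not independent support.

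**Figure D4:**
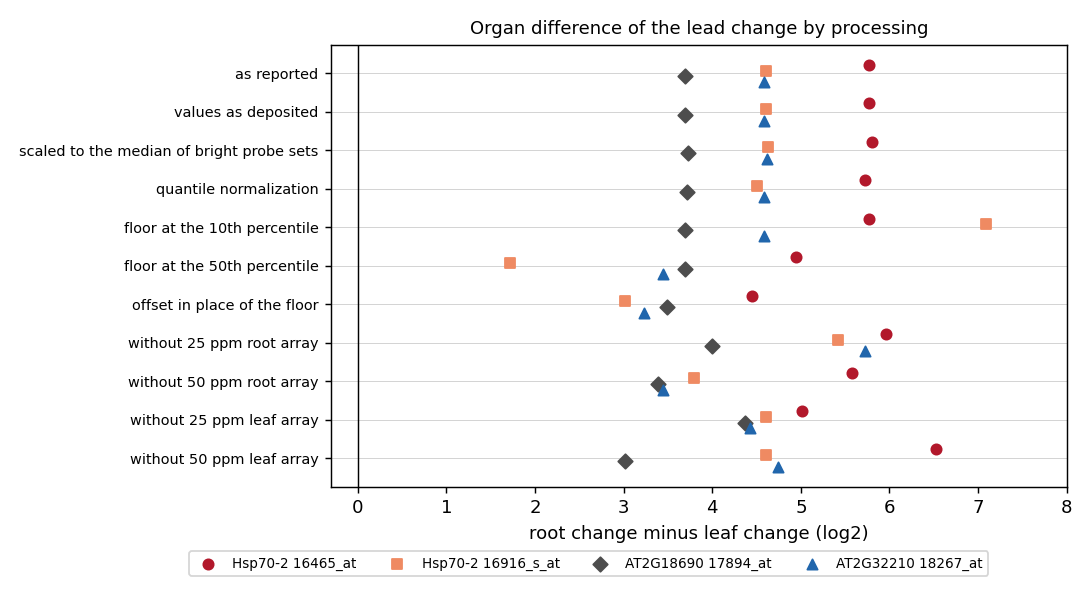
Root change minus leaf change with lead (log2) of the 4 member probe sets under the reported processing and 10 alternatives, 1 row each. All points lie right of 0, from 1.72 for 16916_s_at with the floor at the 50th percentile to 7.09 for the same probe set with the floor at the 10th percentile.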

How the data were processed

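The authors' deposited values are linear intensities, 1 per probe set and array, whose 2% trimmed means lay near 100; their software is not stated in the labels, and precision is limited by the number of arrays. All 6 value columns were used, with 0 unused. After removal of 50 control probe sets, every array was brought to the same 2% trimmed mean, the 30th percentile (8.00) was set as a floor, and values were put on the log2 scale. Tested were probe sets that came to the median signal (25.3) or more on 1 array or more. Names came from the platform annotation, with identifiers looked up in a RefSeq table (TAIR 10.1): 3784 probe sets named 1 gene, 70 several and 4393 are unnamed here. A change from or to a value under the floor is a lower bound.

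For the lead tests, limma 3.58.1 in R 4.3.3 (lmFit, eBayes with a trend) used the 4 combinations of organ and lead. The differences between the lead doses gave its 2 residual degrees of freedom. For root against leaf a separate fit used organ and dose, and its error was how far the organs differed in their dose changes. The p-values thus reflect only how far these few arrays differ. The members and lists were chosen with earlier results of these data known. Named genes are the members, the 4 probe sets on each side of the 2-fold rule, the 5 most correlated named probe sets of each member probe set, list genes (up to 6 a list) and the 5 genes on either side of each member in RefSeq order. A planned search for similar proteins was not run, as no sequences were used here. The code was tested on simulated data. Alternatives were other scalings, floors, filters and fold rules, an offset, a fit without a trend and leaving out each array with lead.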

Additional observations from a re-analysis of the deposited data

Results flagged for a closer look

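Opposite movement of the organs, with both lead-treated root arrays on one side of their control and both leaf arrays on the other, drew attention to the results given here. In limma 0 of the 5395 tested probe sets passed for the difference between organs. The 4 member probe sets are within the 5395 but were chosen on that difference, so nothing is read from this about them. AT2G29500 was not tested, since it did not pass the signal filter. The root change exceeded the leaf change on the log2 scale by 5.77 and 4.61 for the probe sets of Hsp70-2, by 3.69 for AT2G18690 and by 4.58 for AT2G32210.

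Among the unnamed probe sets inside or next to the 2-fold rule, the difference was 4.38 for 13284_at, 3.77 for 13015_s_at, 4.22 for 16638_at, 4.01 for 13285_at and 2.31 for 19991_at. For named genes just outside the rule it was 2.77 for AT4G13180 and 3.85 for ATPMEPCRB. The converse probe sets had -5.05 for 17963_at, -4.90 for 19878_at and -2.35 for 20471_at.

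Among related genes the difference was 1.49 and 1.43 for the probe sets of AT3G09440, 2.37 for AT1G05340, 1.97 for AT2G32200, 2.15 for WRKY53 and 1.54 for AT2G29500. Each of these differences rests on 1 control array per organ.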

How the results depend on the processing

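No paired analysis was possible because each group had 1 array, so no replicate numbers were shared; the test of root against leaf did match the arrays by dose. In the absence of replicates, a member's difference was called moved where it shifted by more than the SD between its values at 25 and 50 ppm. With the floor at the 10th percentile the probe sets higher in roots and lower in leaves numbered 10, the converse ones 6, those lower in leaves 85, and the difference of 16916_s_at was 7.09. A floor set at the 50th percentile gave these values: the converse count was 1, that higher in roots 96, and the differences of Hsp70-2 were 4.94 on 16465_at and 1.72 on 16916_s_at. With an offset of 16 these differences were 4.45 and 3.01, both opposite counts were 0, 77 were higher in roots, 33 lower in leaves, and 1 passed in limma for lead in roots. At a mean signal of at least 100 there was 1 probe set of each opposite kind, 63 higher in roots, 16 lower in leaves and 1356 that differed between organs in limma, against 2842. By a 1.5-fold rule the counts, in the order opposite, converse, higher in roots and lower in leaves, were 22, 11, 378 and 188, and by a 3-fold rule 0, 1, 51 and 20. Without a filter 36 passed in limma for lead in roots, 22 in leaves and 58 for the difference. Leaving out an array with lead gave 7 to 20 opposite and 3 to 6 converse probe sets, 156 to 591 higher in roots and 56 to 203 lower in leaves. In limma it gave 0 to 171 for lead in roots, 0 in leaves, 0 to 121 for the difference and 2081 to 2681 between organs; the lone array is then assumed to vary like the other organ's. The 171 and 121 came without the 25 ppm root array, and without the 50 ppm root array 63 and 28 passed. The member differences then ran from 5.01 to 6.53 (16465_at), 3.80 to 5.42 (16916_s_at), 3.01 to 4.37 (AT2G18690) and 3.45 to 5.72 (AT2G32210). The cause of these shifts was not tested. Control arrays could not be left out, since each is the only one of its organ.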
